A study of Mus musculus with 2 samples.

Results

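The galectins and annexins of leukocytes of the aortic adventitia were described for 8 of the 55386 features counted, taken by symbol from both libraries. They were the galectins *Lgals1*, *Lgals3* and *Lgals9*, the galectin-3 binding protein *Lgals3bp*, and the annexins *Anxa1*, *Anxa2*, *Anxa4* and *Anxa5*. All 8 were found in each library and all 8 passed the minimum of 100 UMIs (unique molecular identifiers, each standing for 1 captured transcript) that was set for comparing macrophages. CD45-positive cells had been sorted from the aortic adventitia, without intima and media, of mice aged about 16 weeks and sequenced as single cells. There was 1 library without treatment (steady state, 3 pooled animals) and 1 library after 10 days of angiotensin II (AngII) at 1.8 µg/kg/min from osmotic pumps (2 pooled animals). Both groups carried RankCre and Rosa26eYFP: Cre made from the *Rank* gene (*Tnfrsf11a*) switches on eYFP in a cell and in whatever descends from it. The authors read eYFP transcripts (*Yfp*) in macrophages as a mark of yolk sac origin. Of the cells classed below as type-2 innate lymphoid, 7 of 8 at steady state and 9 of 14 on AngII also had *Yfp*. When *Rank* was switched on in a *Yfp*+ cell was not tested. The cells of pooled animals cannot be told apart, and each condition is therefore 1 sample with no replicate and no test.

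Galectins are lectins that bind galactose-containing sugars on surface and matrix glycoproteins, and many are secreted without a signal peptide. Annexins bind acidic phospholipids, such as phosphatidylserine, when calcium rises, at the inner leaf of the membrane or outside the cell. In macrophages both families are known for the handling of dying cells, for membrane repair and for signals that curb or prolong inflammation, and galectin-3 is widely used as a macrophage marker in diseased arteries.

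Cells were assigned to classes by marker genes, none of them a member, and levels are UMIs of a gene per 1000000 UMIs of its class (CPM) with exact Poisson 95% intervals. Ratios carry exact intervals for 2 counts, and all intervals cover counting error only, not the difference between animals. The steady-state library kept 306 cells with a median of 9105 UMIs and the AngII library 4198 cells with a median of 1092, so low levels were measured more firmly per cell at steady state and over more cells on AngII. A class was assigned to 99.7% and 92.6% of cells, 7.19% and 23.9% of cells lay near a cut between classes, and the libraries shared 0 barcodes. Free RNA, read from *Lyz2*, *Apoe* and *Pf4* in T- and B-gated cells, stood at 3.17% of the library level at steady state and 9.35% on AngII. The Y-linked *Ddx3y* had 274 UMIs at steady state and 1 on AngII, and *Xist*, a transcript of female cells, had 697 and 14043. The steady-state library thus held both. The sex of the animals differed between the libraries, so it and the treatment cannot be told apart. Cells with at least 2 markers of fibroblasts, smooth muscle or endothelium numbered 1, 1 and 1 at steady state and 6, 0 and 10 on AngII.

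At steady state the members divided macrophages from monocytes and dendritic cells in different ways. *Lgals1*, a galectin known for its effects on T cell survival, had its highest level in resident macrophage-gated cells (*Lyve1*, *Folr2*, *F13a1* and other markers; 119 cells) at 1291 CPM, 4.26 times (interval 3.17 to 5.86) the 303 CPM of classical monocyte-gated cells. *Lgals3* ran the other way. It stood at 244 CPM in resident macrophage-gated cells and at 1611 CPM in classical monocyte-gated cells, a ratio of 0.152 (0.128 to 0.180), with 1006 and 957 CPM in type-1 and type-2 dendritic cell-gated cells. B-gated cells had 33.0 CPM against a free RNA part of 18.5 CPM. A further 12 cells met the gate for type-2 macrophages (*Ear2*, *Tnip3*, *Lyz1*, *Cd226*), but among their 10 leading genes stood 2 markers of reparative macrophages and 1 of their own. At steady state they are therefore called here only by their gate and are not named as a highest class, though counts of neighbouring pairs include them. Their *Lgals3* level was 1768 CPM, and 1090 CPM without the 1 cell that held 268 of their 569 UMIs.

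*Anxa1*, whose protein is a ligand of formyl peptide receptors, and *Anxa2*, which assembles plasminogen and its activator on the cell surface, were highest in type-1 dendritic cell-gated cells at steady state, with 587 and 1242 CPM. Resident macrophage-gated cells held 158 CPM of *Anxa1* and 319 CPM of *Anxa2*, below the classical monocytes (418 and 741 CPM) by ratios of 0.378 (0.283 to 0.509) and 0.430 (0.348 to 0.535). *Anxa5*, the phosphatidylserine-binding annexin used to stain dying cells, stood by contrast higher in resident macrophage-gated cells, at 578 CPM, which was 1.34 times (1.04 to 1.76) the classical monocyte level. The type-2 gate held 600 CPM of it, and 499.7 CPM without its richest cell. *Anxa4*, an annexin found at membranes of epithelial and other cells, ran from 75.2 CPM in resident macrophage-gated cells to 6.59 CPM in B-gated cells. The type-2 gate held 87.0 CPM of it, and 74.5 CPM without its richest cell. With that gate counted, no pair of neighbouring classes differed beyond the interval. Levels of different genes depend on what a 3' library captures of each and are compared here only within a gene.

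*Lgals9*, a ligand of the immune receptor TIM-3 (*Havcr2*), and *Lgals3bp*, a secreted glycoprotein that binds galectins, were low in all classes. *Lgals9* ran from 74.1 CPM in classical monocyte-gated cells to 4.28 CPM in type-1 dendritic cell-gated cells, and stood at 56.0 CPM in B-gated cells against a free RNA part of 1.70 CPM. *Lgals3bp* ran from 92.2 CPM in resident macrophage-gated to 17.1 CPM in type-1 dendritic cell-gated cells. For both genes 0 of the 7 pairs of neighbouring classes, the type-2 gate counted, differed beyond the interval at steady state, so neighbours in the order could not be told apart. Classes further apart could be: *Lgals3bp* in all macrophage-gated cells was 4.39 times (1.97 to 12.1) its level in B-gated cells.

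**Figure D1:**
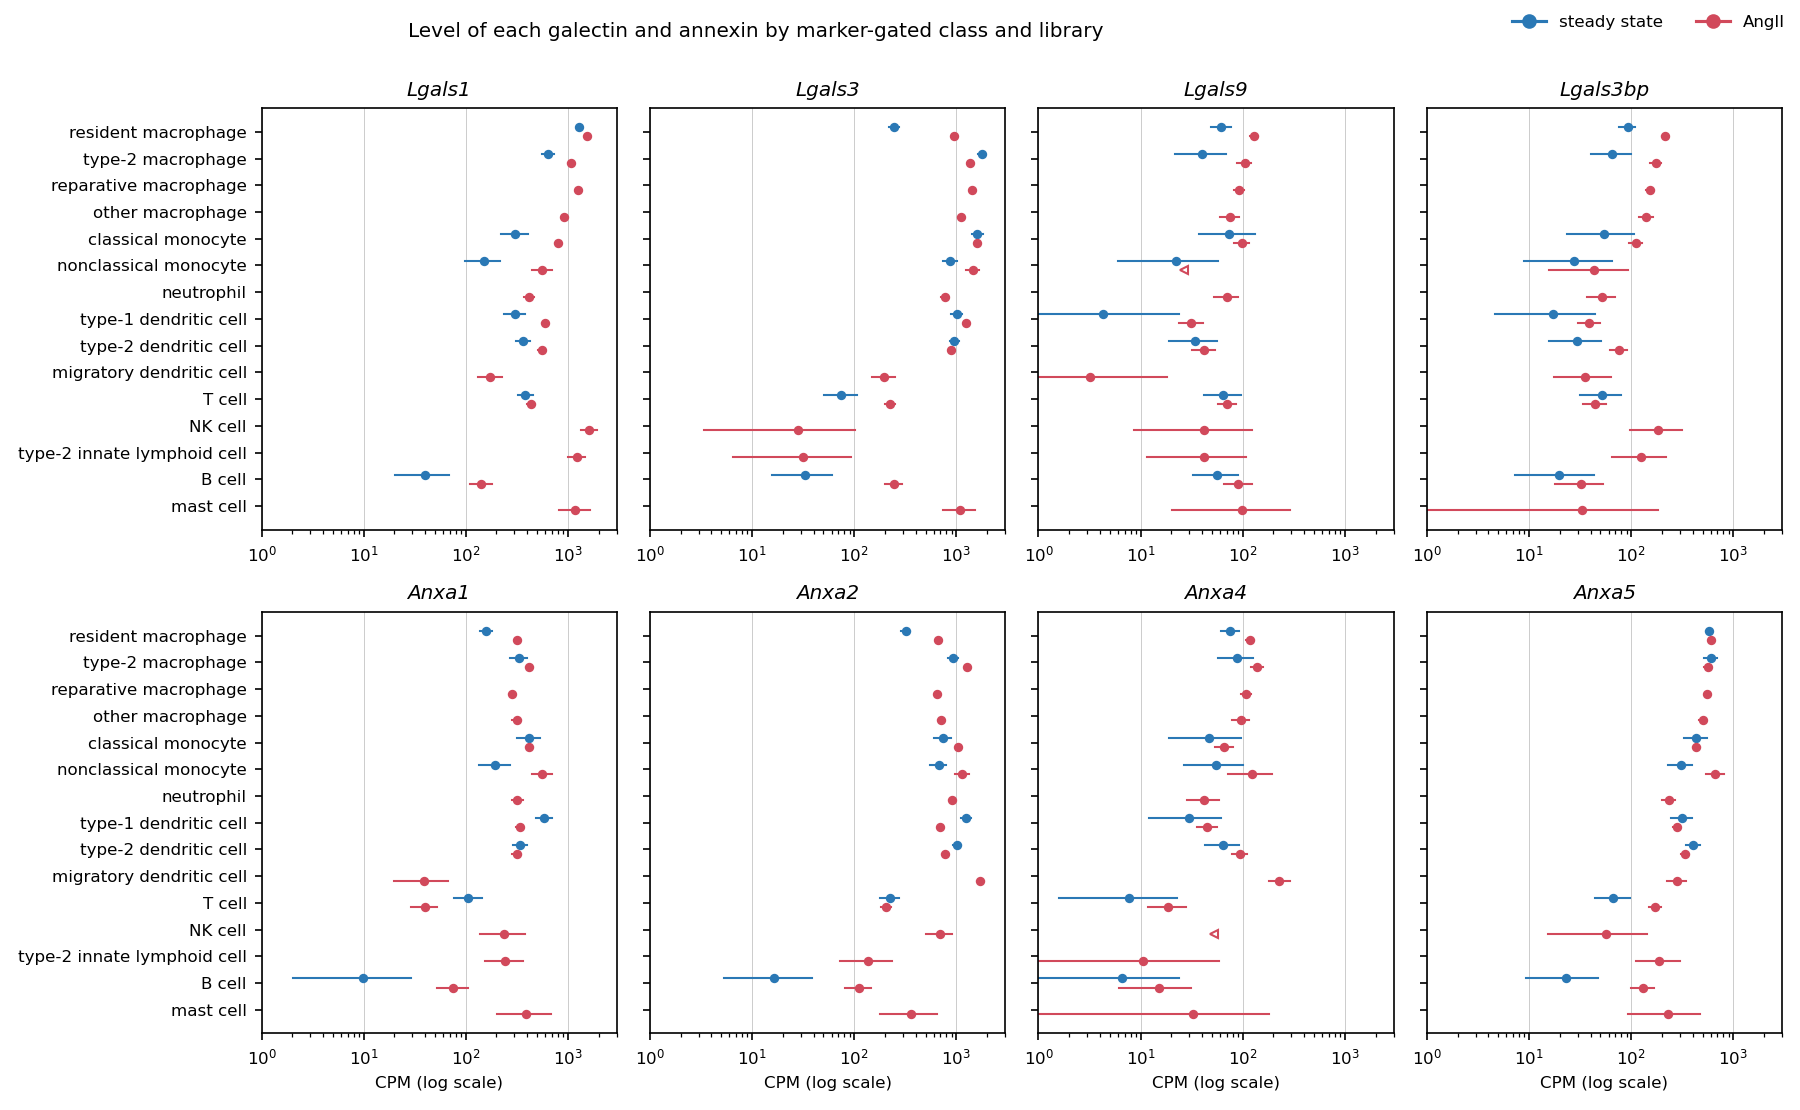
Levels of the 8 members in each marker-gated class with at least 10 cells (vertical axis), in CPM on a log axis, at steady state and on AngII, 1 panel per gene; bars are exact Poisson 95% intervals for counting error, drawn no lower than 1 CPM, and open triangles mark the upper limit where a class had 0 UMIs. *Lgals3* sat at 244 CPM in resident macrophage-gated cells at steady state and at 951 CPM on AngII, while the classical monocyte points overlay each other at 1611 and 1610 CPM.

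On AngII more classes had enough cells to be placed. *Lgals1* was again high in resident macrophage-gated cells (1531 CPM), but natural killer-gated cells (13 cells, 1616 CPM) and type-2 innate lymphoid-gated cells (14 cells, 1219 CPM) came within the range of macrophages. The same lymphoid cells were at the bottom for *Lgals3*, with 28.1 and 31.5 CPM (2 and 3 UMIs), both below its free RNA part of 98.9 CPM. Classical monocyte-gated cells had 1610 CPM of it. Reparative macrophage-gated cells (541 cells, gated by *Arg1*, *Spp1*, *Inhba*, *Thbs1*, *Gpnmb* and *Fabp5*) had 1415 CPM. Migratory dendritic cell-gated cells (45 cells, gated by *Ccr7*, *Fscn1*, *Ccl22* and other markers) had the highest *Anxa2* and *Anxa4*, at 1724 and 229 CPM. These levels were 2.22 and 2.44 times those of type-2 dendritic cell-gated cells. For *Anxa4* 1 of the 45 migratory cells held 21 of the 71 UMIs. In the same cells *Anxa1* was at 38.7 CPM, the lowest of the classes but not different beyond its interval from T-gated cells (39.5 CPM), *Lgals3* stood at 194 CPM, and *Lgals9* had 1 UMI. Neutrophil-gated cells held 767 CPM of *Lgals3* and 905 CPM of *Anxa2*, and 419 CPM of *Lgals1*. Of these 339 cells, however, 252 also met the gate of a separate lineage. Their *Apoe* stood at 2656 CPM against a free RNA part of 781 CPM. The part of RNA from other cells in these levels was not tested.

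Among the macrophage classes of the AngII library the members separated 3 ways. Resident macrophage-gated cells were highest for *Lgals1*, *Lgals9* (130 CPM) and *Lgals3bp* (215 CPM). Reparative and type-2 macrophage-gated cells had more *Lgals3*, 1415 and 1351 CPM against 951 CPM in resident cells, which came to 0.672 (0.644 to 0.702) and 0.704 (0.668 to 0.743) for resident over each. Type-2 macrophage-gated cells had 1.97 times (1.85 to 2.10) the *Anxa2* of reparative macrophage-gated cells, whereas for *Anxa5* the interval of that ratio held 1 (0.923 to 1.09). Levels in neighbouring classes differed beyond the interval for 6 of 14 pairs for *Lgals1* and *Lgals3*, 4 for *Anxa2* and *Anxa5*, 3 for *Anxa1* and *Anxa4*, and 2 for *Lgals9* and *Lgals3bp*.

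The comparison of AngII with steady state asked how the members' levels in macrophages stood after AngII. In all macrophage-gated cells (135 at steady state, 2402 on AngII) *Lgals3* was 593 CPM at steady state and 1172 CPM on AngII, a ratio of 1.98 (1.85 to 2.11). For *Lgals3* that ratio was 3.52 with each cell thinned to 500 UMIs, 2.79 as a mean over cells and 2.56 without the richest cell of each library. *Lgals3bp* went from 86.8 to 181 CPM, a ratio of 2.08 (1.76 to 2.48), and *Lgals9* from 57.8 to 108 CPM, 1.87 (1.52 to 2.31). The interval of these ratios lay above 1 for each of the 3 genes. *Anxa1* stood at 191 and 324 CPM (1.69), *Anxa2* at 433 and 755 CPM (1.74) and *Anxa4* at 81.0 and 115 CPM (1.42). *Lgals1*, at 1172 and 1303 CPM, gave 1.11 (1.06 to 1.17), and *Anxa5*, at 589 and 570 CPM, gave 0.967 (0.904 to 1.03), the only member whose interval held 1. With each cell thinned to 500 UMIs in a single random draw, however, *Anxa5* gave 0.611. That draw left a UMI of *Anxa5* in 44 of 135 and 546 of 2402 cells. The *Anxa5* ratio was 0.886 as a mean over cells and 0.985 with cells under 2000 UMIs left out. *Lgals3bp* alone, 1 of 8, was at least 2-fold higher on AngII, beside 6.47% of the 8407 genes that passed the minimum, and 0 of 8 were at least 2-fold lower, beside 5.22%. Thinned to 500 UMIs per cell, *Lgals3bp* gave 1.43, with a UMI of it left in only 6 of the 135 steady-state cells. The *Lgals3bp* ratio was 1.87 as a mean over cells and 2.16 with cells under 2000 UMIs left out. The median log2 ratio of the members was 0.78, and that of all genes tested was 0.00.

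The macrophage pool had a different make-up in each library. At steady state the 12 type-2 macrophage-gated cells, 8.89% of the pool with 18.6% of its UMIs, held 569 of its 1026 *Lgals3* UMIs, 268 of them in 1 cell, while the 119 resident macrophage-gated cells held 331. Reparative macrophage-gated cells numbered 0 of 135 at steady state and 541 of 2402 on AngII. Resident macrophage-gated cells were therefore compared by themselves.

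Within resident macrophage-gated cells (119 and 814) *Lgals3* stood at 244 CPM (218 to 272) at steady state and 951 CPM (922 to 981) on AngII, a ratio of 3.90 (3.48 to 4.37), the largest among the members. *Lgals3bp* was 92.2 and 215 CPM (2.33, interval 1.93 to 2.83), *Lgals9* 61.9 and 130 CPM (2.09, interval 1.66 to 2.67), *Anxa2* 319 and 662 CPM (2.08, interval 1.88 to 2.31) and *Anxa1* 158 and 320 CPM (2.03, interval 1.76 to 2.36). *Anxa4* gave 1.56 (1.25 to 1.94), *Lgals1* 1.19 (1.12 to 1.25) and *Anxa5* 1.04 (0.962 to 1.13). In the thinned draw *Anxa5* gave 0.601, with a UMI of it in 41 of 119 and 190 of 814 cells. So 5 of 8 members were at least 2-fold higher, beside 5.43% of 6427 genes, and 0 were at least 2-fold lower, beside 4.03%. Their median log2 ratio was 1.04, against 0.03 over all genes tested. In B-gated cells (51 and 115), 6 of 8 were also at least 2-fold higher, with a median log2 ratio of 2.17, beside 3.53% of 1049 genes, and 0 were lower, beside 2.1%. The members had only 2 to 17 UMIs each in the B-gated cells at steady state, only *Lgals3* passed the minimum of 100 UMIs there, and the share of free RNA was 3.17% at steady state and 9.35% on AngII. With the free RNA part taken off, 5 of 8 members were at least 2-fold higher in resident macrophage-gated cells, and *Lgals3* stood at 233 and 940.4 CPM. Before that step the lower bounds of 4 of those 5 ratios were below 2, and only that of *Lgals3* was above it.

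Marker genes of other classes moved in the same gate. From steady state to AngII the summed level of the 6 reparative markers in resident macrophage-gated cells went from 32.4 CPM, with 4 of the 6 at 0, to 869 CPM, with 1 at 0. Those of the 6 classical monocyte markers went from 53.1 to 587 CPM and of the 8 neutrophil markers from 291 to 732 CPM, while the 8 resident markers went from 8770 to 3973 CPM. In the cells with no UMI of any reparative, classical monocyte or neutrophil marker (49 cells with a median of 8411 UMIs and 109 cells with a median of 854), the ratio was 2.73 (2.09 to 3.57) for *Lgals3*, 2.93 (1.86 to 4.67) for *Lgals3bp* and 2.32 (1.77 to 3.05) for *Anxa2*. *Lgals9* was then at 1.72 (0.957 to 3.08) and *Anxa1* at 1.31 (0.905 to 1.89), so 3 of 8 were past 2-fold. The part of these markers in the ratios of all resident macrophage-gated cells was not tested further. In *Yfp*+ resident macrophage-gated cells (92 and 210) *Lgals3* was 261 and 980 CPM, a ratio of 3.75 (3.33 to 4.23), with *Lgals3bp* at 2.38, *Anxa1* at 2.11, *Anxa2* at 2.03 and *Lgals9* at 1.94.

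**Figure D2:**
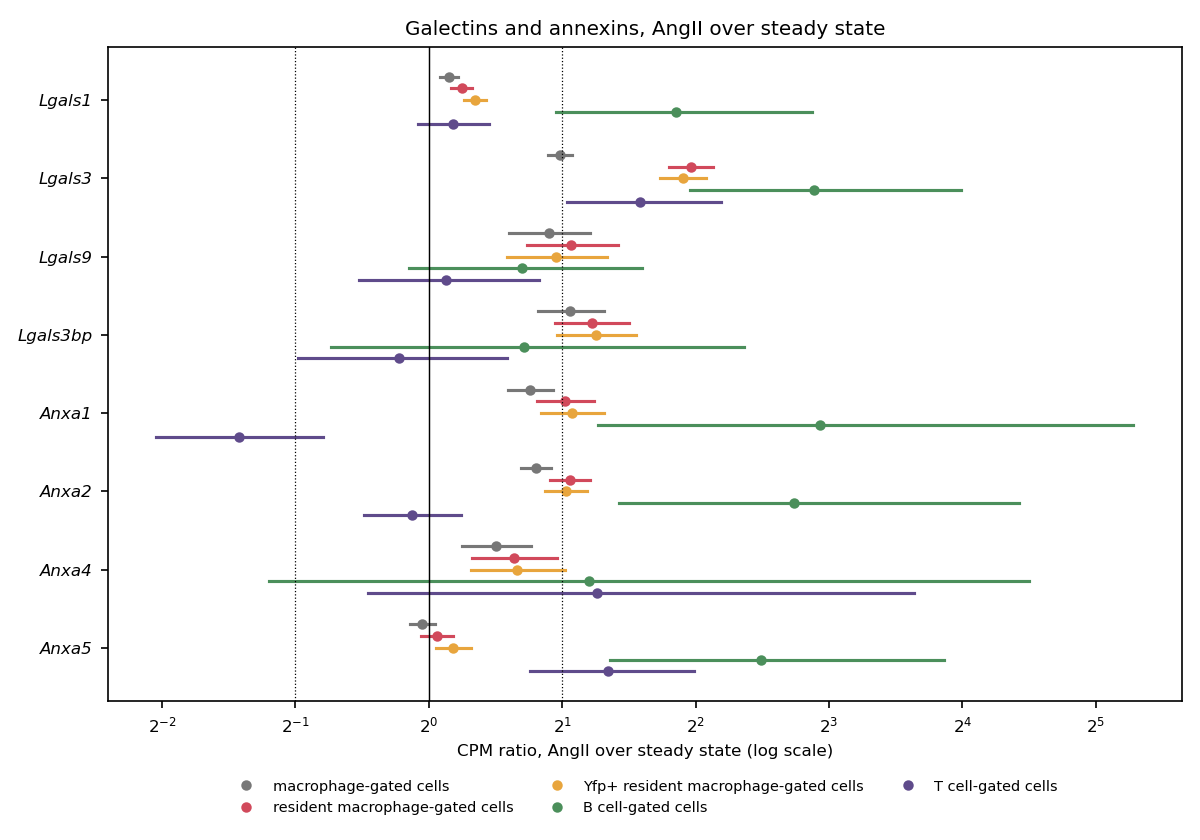
Ratio of AngII over steady state for each member (log2 axis; 1 means equal levels) in all macrophage-gated, resident macrophage-gated, *Yfp*+ resident macrophage-gated, B-gated and T-gated cells; points are ratios, bars exact 95% intervals for counting error, and dotted lines mark 2-fold in either direction. *Lgals3* sat at 1.98 in all macrophage-gated cells and at 3.90 in resident macrophage-gated cells, while *Anxa5* lay at 0.967 and 1.04. In a single random draw of 500 UMIs per cell *Anxa5* gave 0.611 and 0.601. As a mean over all macrophage-gated cells it gave 0.886.

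The level of *Lgals3* per cell differed in the same direction. Among resident macrophage-gated cells with at least 2000 UMIs (115 at steady state with a median of 10161 UMIs, 353 on AngII with a median of 7210), *Lgals3* had no UMI in 59.1% at steady state and in 11.6% on AngII, and its median was 0 and 626 CPM. *Anxa2* had no UMI in 42.6% and 13.9% of cells, with medians of 109 and 435 CPM. *Lgals3bp* had none in 60.9% and 35.7%, and *Lgals9* none in 61.7% and 44.8%. *Lgals1* and *Anxa5* were found in nearly every cell of both libraries: 5.22% and 3.40% of cells lacked *Lgals1*, and 5.22% and 10.2% lacked *Anxa5*. With each cell thinned to 500 UMIs, *Lgals3* was found in 6.72% of resident macrophage-gated cells at steady state and 33.7% on AngII (40.3% and 70.5% before thinning). In B-gated cells, read as the background, it was found in 0 of 51 thinned cells (exact binomial interval up to 6.98%) and in 18.3%.

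**Figure D3:**
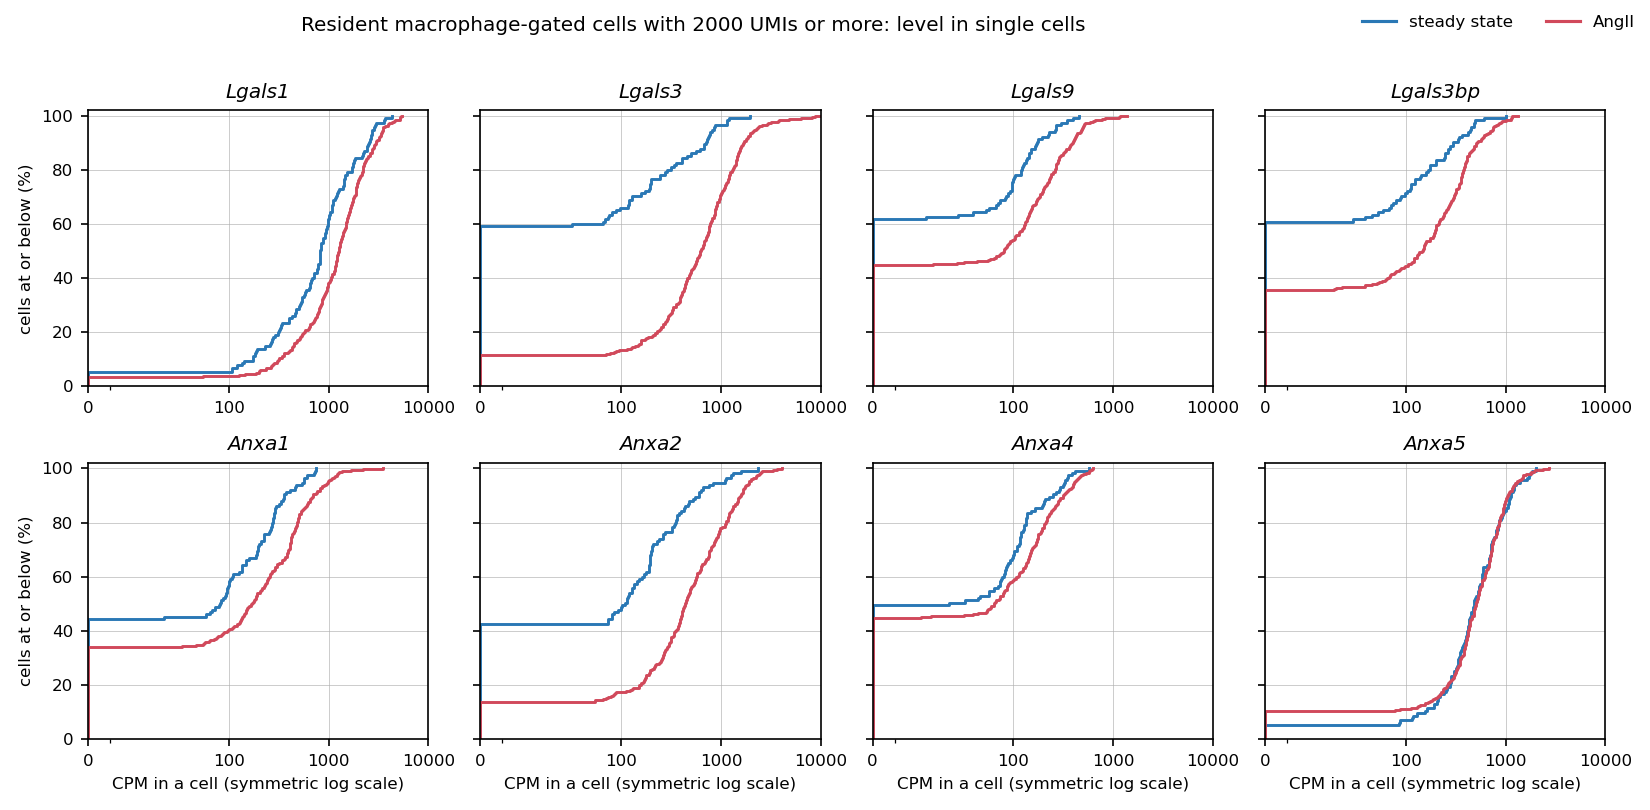
Share of resident macrophage-gated cells with at least 2000 UMIs (vertical axis, percent) whose level of each member is at or below a given CPM (horizontal axis, symmetric log scale), 115 cells at steady state and 353 on AngII. The *Lgals3* curve starts at 59.1% at steady state and at 11.6% on AngII, the cells with no UMI, while the *Anxa5* curves cross the middle at medians of 484 and 504 CPM.

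Other classes gave other ratios, and the differences between classes were not tested. In classical monocyte-gated cells (10 and 278) *Lgals3* was 1611 CPM at steady state and 1610 CPM on AngII (0.999, interval 0.875 to 1.15), while *Lgals1* was 303 and 799 CPM (2.64). Immunoglobulin genes were among the leading genes of the AngII classical monocyte-gated cells. Nonclassical monocyte-gated cells (14 and 19) had 149 and 560 CPM of *Lgals1* (3.75) and 194 and 560 CPM of *Anxa1* (2.89). These ratios lean on single cells: on AngII 1 cell held 32 of the 78 *Lgals1* UMIs and 1 cell held 45 of the 78 *Anxa1* UMIs. Type-1 dendritic cell-gated cells (11 and 168) went the opposite way for the annexins, with *Anxa1* at 587 and 337 CPM (0.575, interval 0.477 to 0.698) and *Anxa2* at 1242 and 693 CPM (0.558, interval 0.491 to 0.637). *Anxa2* was also lower in type-2 dendritic cell-gated cells (18 and 160), 1016 and 775 CPM (0.762, interval 0.682 to 0.853). For the type-2 gate, led at steady state by markers of another class, levels are set side by side only, with *Lgals3* at 1768 CPM at steady state and 1351 CPM on AngII.

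In B-gated cells (51 and 115) *Lgals3* stood at 33.0 CPM (10 UMIs) at steady state and 244 CPM (113 UMIs) on AngII (7.41, interval 3.88 to 15.9). The free RNA part came to 18.5 and 98.9 CPM, and less that part the levels were 14.9 and 160 CPM. That part on AngII used the 9.35% from T- and B-gated cells together. In B-gated cells alone *Lyz2*, *Apoe* and *Pf4* stood at 12.3%, 12.5% and 7.32% of the library level. A gate of a separate lineage was also met by 47 of the 51 and 76 of the 115 B-gated cells, so the *Lgals3* left over may not all be their own. *Lgals9* in B-gated cells was 56.0 and 90.7 CPM (1.62), well above its free RNA part of 1.70 and 8.03 CPM. In T-gated cells (41 and 304) *Anxa1* was 106 and 39.5 CPM (0.374, interval 0.243 to 0.578) and *Lgals3* 74.8 and 225 CPM (3.00). Less the free RNA part, *Anxa1* was 102.1 and 12.4 CPM and *Lgals3* 58.1 and 139 CPM. Of the 304 T-gated cells on AngII, 77 had a UMI of *Dntt* or *Rag1*, genes of immature lymphocytes, and held 672135 of the class's 1290888 UMIs, while 0 of 41 had one at steady state. Without those 77 cells *Anxa1* was 71.1 CPM, a ratio of 0.672 (0.429 to 1.06), *Lgals3* was 359 CPM, a ratio of 4.80 (3.25 to 7.33), and *Lgals1* was 798 CPM against 384 at steady state, 2.08 (1.73 to 2.51). Cells with *Dntt* or *Rag1* had 101 CPM of *Lgals1* and 0.146 times the *Anxa1* of the other T-gated cells, while *Lgals9* (0.983, interval 0.638 to 1.52) and *Anxa5* (1.10, interval 0.840 to 1.46) did not differ beyond the interval.

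Several members, *Lgals1*, *Lgals3* and *Anxa2* among them, stood differently in *Yfp*+ and *Yfp*− macrophage-gated cells. *Yfp*+ macrophage-gated cells had more *Lgals1* than *Yfp*− cells in both libraries, 1248 against 690 CPM at steady state (1.81, interval 1.54 to 2.14) and 1567 against 1153 CPM on AngII (1.36, interval 1.31 to 1.41). For *Lgals3* the ratio lay on opposite sides of 1, a difference that was not tested: *Yfp*+ cells had 634 against 330 CPM at steady state (1.92, interval 1.52 to 2.46; 1.42 without the 1 cell with 268 UMIs, which was *Yfp*+) and 991 against 1275 CPM on AngII (0.777, interval 0.747 to 0.808). *Anxa2* and *Anxa1* were also lower in *Yfp*+ cells on AngII, at 0.862 and 0.903, while *Lgals3bp* (1.30) and *Anxa5* (1.12) were higher. Within resident macrophage-gated cells on AngII the *Lgals3* ratio was 1.07 (1.004 to 1.14) and at steady state 2.23 (1.41 to 3.76), with 261 against 117 CPM. *Anxa2* did likewise there, with 344 against 129 CPM at steady state (2.66, interval 1.72 to 4.35) and 700 against 613 CPM on AngII (1.14, interval 1.06 to 1.23). The *Yfp*− resident macrophage-gated cells at steady state numbered only 27, with 19 UMIs of *Lgals3* and 21 of *Anxa2*. *Yfp*+ cells were deeper than *Yfp*− cells, with medians of 11501 and 5770.5 UMIs at steady state and 5354 and 1018.5 on AngII. The part of depth in the *Yfp* call was not tested; with cells thinned to 500 UMIs the AngII *Lgals3* ratio was 0.895, the highest over the alternatives run, and 0.772 was the lowest.

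**Figure D4:**
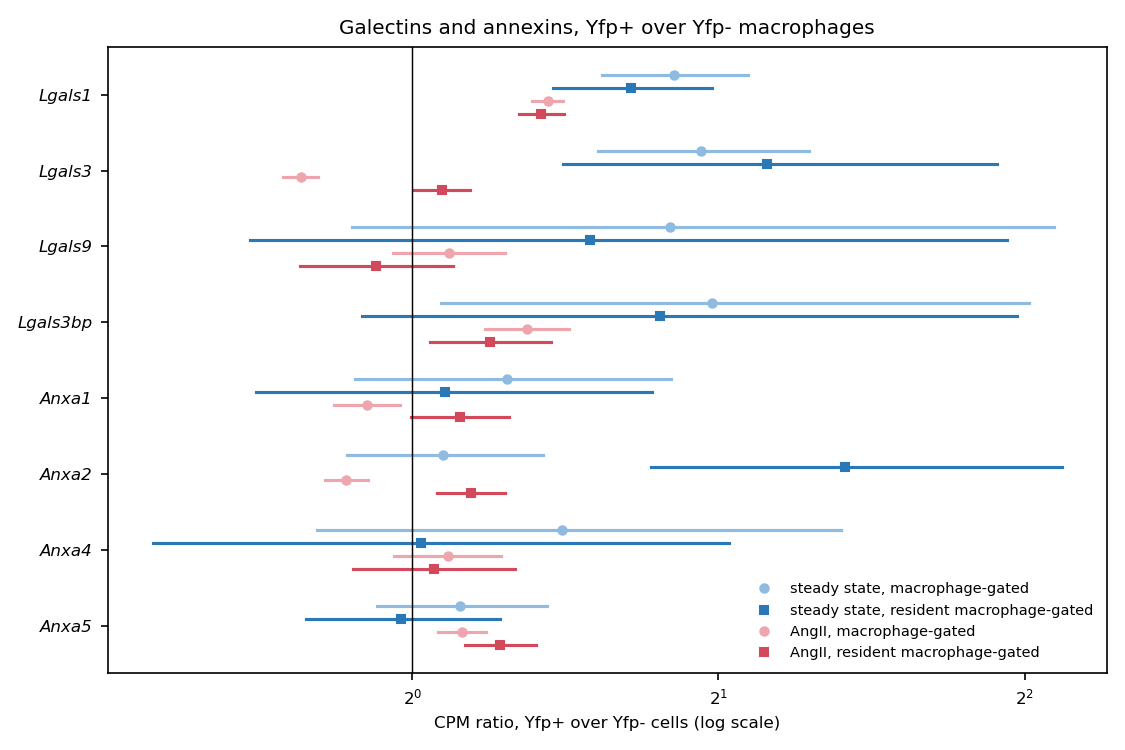
Ratio of *Yfp*+ over *Yfp*− cells for each member (log2 axis; 1 means equal levels) among all macrophage-gated and resident macrophage-gated cells of each library, with exact 95% intervals for counting error. *Lgals1* lay above 1 in each pool, while *Lgals3* in all macrophage-gated cells lay at 1.92 at steady state and 0.777 on AngII.

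*Lgals9* and *Lgals3bp* went with the interferon-response state of the cell. Macrophage-gated cells with at least 3 of 8 interferon-response genes (*Ifit1*, *Ifit2*, *Ifit3*, *Irf7*, *Ifi211*, *Rsad2*, *Cxcl10*, *Isg15*) were set against those with none, 14 against 69 cells at steady state and 260 against 1401 on AngII. At steady state *Lgals9* was 135 CPM in the first and 44.1 CPM in the second (3.06, interval 1.85 to 5.06), and *Lgals3bp* 223 and 41.6 CPM (5.35, interval 3.42 to 8.49). On AngII *Lgals9* was 155 and 82.2 CPM (1.88, interval 1.61 to 2.21) and *Lgals3bp* 276 and 117 CPM (2.36, interval 2.08 to 2.68). Both were thus past 2-fold at steady state, 2 of 8 members beside 1.98% of 3381 genes, and *Lgals3bp* alone on AngII, 1 of 8 beside 1.66% of 8477 genes. The other 6 members did not reach 2-fold in either library, with ratios from 0.531 (*Anxa1* at steady state) to 1.20 (*Anxa4* at steady state). On AngII the cells with at least 3 of the genes had a median of 9584.5 UMIs and those with none 890. With cells under 2000 UMIs left out, *Lgals9* on AngII was 153 and 78.7 CPM and *Lgals3bp* 275 and 119 CPM.

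The summed level of the 8 interferon-response genes in resident macrophage-gated cells went from 270 to 652 CPM from steady state to AngII. Within resident macrophage-gated cells in which none of the 8 was found (60 and 407 cells), *Lgals3bp* was 47.5 and 159 CPM, a ratio of 3.35 (2.27 to 5.11), and *Lgals9* 53.8 and 107 CPM, 1.98 (1.34 to 2.99). Among cells with at least 3 of them (11 and 132) the interval of the ratio held 1, at 1.24 (0.889 to 1.76) for *Lgals3bp* and 1.15 (0.757 to 1.84) for *Lgals9*, while *Lgals3* stood at 73.6 CPM (12 UMIs) at steady state and 993 CPM on AngII, a ratio of 13.5 (7.70 to 26.2). In cells with none of the 8 *Lgals3* was 279 and 843 CPM, a ratio of 3.02 (2.57 to 3.57). With cells under 2000 UMIs left out, the ratios in cells with none were 3.33 for *Lgals3bp* and 1.77 for *Lgals9*.

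**Figure D5:**
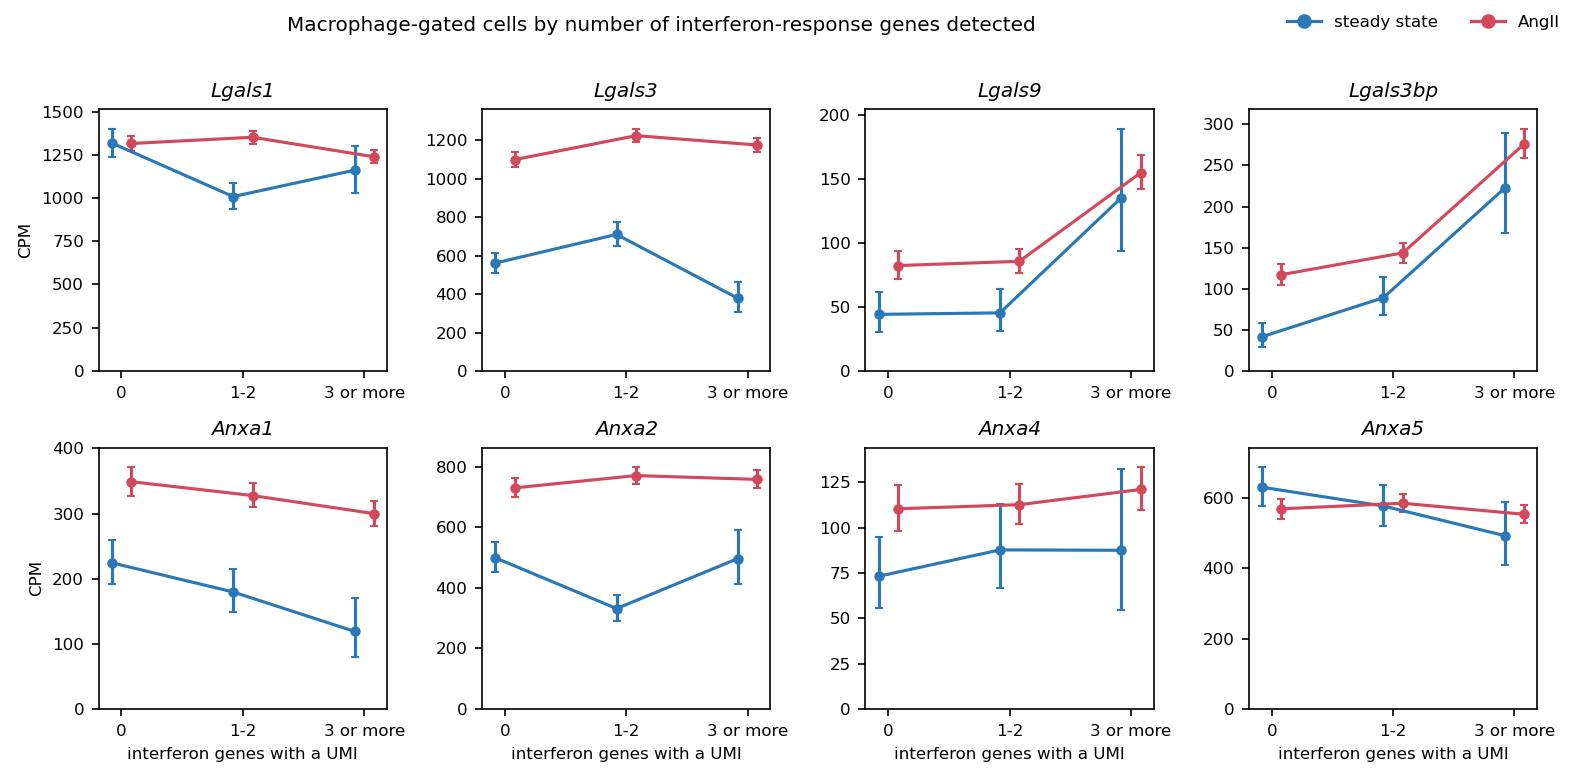
Level of each member in CPM (vertical axis) in macrophage-gated cells grouped by how many of 8 interferon-response genes were found (horizontal axis), in each library, with exact Poisson 95% intervals for counting error. *Lgals3bp* went from 41.6 CPM in cells with none to 223 CPM in cells with at least 3 at steady state, and from 117 to 276 CPM on AngII.

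The promoter windows of these 2 members are shown because their levels went with the interferon-response genes. RefSeq windows of 250 bases before to 50 after the start site (GRCm38.p6) were searched on both strands for 2 copies of GAAA with any 2 bases between them, the core of the interferon-stimulated response element, which reads as TTTC on the other strand, with overlapping matches counted. A match was found in 3.44% of 32851 windows, in 6 of the 8 interferon-response genes and in 1 of the 7 members with a window, *Lgals9*, whose matches begin 55 bases before and 15 bases after the start site. *Lgals1* had no window. Capitals mark the matches, and the windows read 5′ to 3′ on the minus strand, the strand of both genes, at chr11:78984875-78985174 for *Lgals9* and chr11:118401910-118402209 for *Lgals3bp*.
Lgals9: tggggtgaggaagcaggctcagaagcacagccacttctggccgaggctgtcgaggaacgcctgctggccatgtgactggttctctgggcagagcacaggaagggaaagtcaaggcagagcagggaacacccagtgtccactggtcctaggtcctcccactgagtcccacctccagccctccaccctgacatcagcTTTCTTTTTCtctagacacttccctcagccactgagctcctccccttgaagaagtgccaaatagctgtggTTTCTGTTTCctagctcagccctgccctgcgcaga
Lgals3bp: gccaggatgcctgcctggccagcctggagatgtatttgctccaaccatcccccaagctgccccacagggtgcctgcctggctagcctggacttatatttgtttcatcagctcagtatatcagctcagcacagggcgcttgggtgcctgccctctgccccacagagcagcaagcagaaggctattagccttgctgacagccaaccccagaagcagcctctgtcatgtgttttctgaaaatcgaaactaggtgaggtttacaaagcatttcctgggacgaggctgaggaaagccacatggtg
The *Lgals3bp* window held 0 matches of these letters, and a match is a description of the sequence, not a binding site.

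Of 33 other genes listed for the 2 families and their partners, 18 passed the minimum of 100 UMIs in macrophage-gated cells, of which 4 were at least 2-fold higher on AngII, beside 6.47% of all genes, and 1 at least 2-fold lower, beside 5.22%. *Fpr2* and *Havcr2* passed that minimum only through the AngII library, where they were high, so these counts describe the list and support nothing. *S100a11*, a calcium-binding partner of annexins, stood at 320 and 932 CPM (2.91, interval 2.67 to 3.18), and *Cd44*, a hyaluronan receptor whose glycans bind galectins, at 183 and 384 CPM (2.10, interval 1.87 to 2.36). *Fpr2*, the receptor for annexin A1, had 2 UMIs at steady state and 201 on AngII (17.6, interval 4.81 to 146), and *Havcr2*, the galectin-9 receptor, 7 and 304 UMIs (7.61, interval 3.65 to 19.1). *Plau*, the urokinase that activates plasminogen, was the gene that was lower, at 28.3 and 13.3 CPM (0.469, interval 0.335 to 0.665). *S100a10*, which forms a complex with annexin A2, stood at a ratio of 1.03 where *Anxa2* was at 1.74. None of the 4 other annexins tested (*Anxa3*, *Anxa6*, *Anxa7*, *Anxa11*) and not *Lgals8*, the 1 other galectin tested, reached 2-fold. In resident macrophage-gated cells 5 of 18 were higher, beside 5.43% of all genes, and 0 lower, beside 4.03%, with the same limit for *Fpr2*, *Havcr2* (7 and 99 UMIs) and *Plaur* (19 and 262 UMIs): *Fpr2* (0 UMIs at steady state, 100 on AngII), *Havcr2*, *S100a11* (2.73), *Cd44* (2.91) and, chosen after its values were seen, *Plaur*, the urokinase receptor, at 14.0 and 62.9 CPM (4.49, interval 2.82 to 7.58).

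Across 15 class points of at least 20 cells, 12 from AngII and 3 from steady state, the genes whose levels followed each member most closely were found among 5426 genes that mark no class, by Pearson's r of log2(CPM + 10). For *Lgals3* these were *Creld2* (r = 0.95), *Pdia6* (0.94) and *Alox5ap* (0.94), for *Lgals1* *Ap3s1*, *Raph1* and *Ssr3* (each 0.91), for *Lgals9* *Nek9* (0.90), *Tmem50a* (0.88) and *Rnpepl1* (0.86), and for *Lgals3bp* *Ocrl* (0.93), *Tmem86a* (0.92) and *Tmem37* (0.92). For *Anxa1* they were *Laptm5* (0.95), *Myo1f* (0.94) and *Cyth4* (0.93), for *Anxa2* *Efhd2* (0.94), *Orai1* (0.93) and *Nr4a2* (0.93), for *Anxa4* *Synj1* (0.93), *Tnfrsf11a* (0.93) and *Arpc4* (0.92), and for *Anxa5* *Bsg* (0.96), *App* (0.93) and *Plin2* (0.92). Among the members themselves *Lgals3* and *Anxa1* were most alike (0.91), followed by *Lgals1* with *Anxa5* (0.84) and *Anxa4* with *Anxa5* (0.84). Only weak negative values were found for *Lgals9* with *Anxa2* (−0.20) and *Anxa4* (−0.25). The points share 2 libraries, their depth and their free RNA, and these values describe them without a test.

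In the GENCODE M21 annotation of GRCm38 *Lgals9* (chr11:78962974-78984946) and *Lgals3bp* (chr11:118392751-118402092) lie on the minus strand of the same chromosome, *Lgals1* on chr15:78926725-78930465, *Lgals3* on chr14:47367751-47386160, *Anxa1* on chr19:20373428-20390944, *Anxa2* on chr9:69453620-69491795, *Anxa4* on chr6:86736840-86793584 and *Anxa5* on chr3:36448923-36475894. Reads were counted over each gene, and only *Anxa2* (*Mir3109*) and *Anxa5* (*Mir7009*) overlap another annotated gene on their own strand.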

How the data were processed

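Transcripts of CD45+ cells of the aortic adventitia were counted in 2 droplet libraries (10x 3' v3.1), 1 per condition. The authors demultiplexed reads with Je (bcl2fastq is named in the submitters' processing notes), aligned them in Cell Ranger 3.1.0 against GRCm38.p6 (GENCODE M24 genes plus eYFP) and deposited raw UMI counts for each gene and barcode.

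Cells outside 300 to 6500 genes or above 5% mitochondrial UMIs were dropped, and each remaining cell was given the class whose markers it showed the largest share of (at least 2 markers). Macrophages were split likewise. A steady-state class whose leading genes held more markers of another class was not compared between libraries. No doublet caller was run and doublets were left in. Cells meeting gates of separate lineages were left out as an alternative (142 and 1396 cells). UMIs were summed per class. With 1 library per condition no test was run: levels are CPM with exact Poisson 95% intervals, ratios carry exact conditional intervals, and a gene past 2-fold with at least 100 UMIs over both libraries was counted (50 for the interferon-response split, within a library). Gates and intervals were run on counts simulated from the pooled profiles of cells already gated. Those counts held no doublets and no spread between cells beyond depth and counting, so the run could not test the gates or intervals against either. The members always, listed partners past 2-fold in macrophage-gated cells, and for each member its 3 closest genes were named. Members, lists and gates were chosen with earlier results of these data known, and the resident comparison, the interferon minimum, the T cell split and the marker-free subset after seeing the data. Alternatives were another gate, clusters, thinning, deep cells, a mean over cells, free RNA subtraction, other totals and median scaling. Python 3.11.15, NumPy 2.4.6, SciPy 1.17.1, pandas 2.3.3, Scanpy 1.11.5 and Matplotlib 3.10.9 were used. Flow cytometry and histology were not analysed here.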

Additional observations from a re-analysis of the deposited data

Results flagged for a closer look

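*Lgals3* stood out because its *Yfp*+ to *Yfp*− ratio in macrophage-gated cells lay on opposite sides of 1 in the libraries, 1.92 at steady state (1.42 without the 1 cell with 268 UMIs) and 0.777 on AngII. The difference between these ratios was not tested, since each library is a single sample. Within resident macrophage-gated cells the same ratios were 2.23 and 1.07, the first with 19 *Lgals3* UMIs in 27 *Yfp*− cells.

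*Anxa1* stood out because AngII over steady state was 2.03 in resident macrophage-gated cells, but 0.575 in type-1 dendritic cell-gated and 0.374 in T-gated cells. *Anxa2* did likewise, at 2.08 in resident macrophage-gated cells, 0.558 in type-1 dendritic cell-gated cells and 0.762 in type-2 dendritic cell-gated cells. These differences between classes were not tested. The steady-state dendritic classes held 11 and 18 cells, and the type-2 dendritic cells there were led in part by histone genes of cycling cells. The T-gated ratio of *Anxa1* was 0.672 (0.429 to 1.06) without the cells that had a *Dntt* or *Rag1* UMI.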

How the results depend on the processing

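The number of members at least 2-fold higher on AngII in macrophage-gated cells, 1 in the main comparison, depended on how the cells were pooled. It was 2 with all deposited barcodes, with cells meeting 2 gates left out, with cells under 2000 UMIs left out and without the cell richest in the gene, 3 with cells thinned to 500 UMIs and as a mean over cells, and 5 in resident macrophage-gated cells alone or at a fold of 1.5. It stayed at 1 under the other 5 alternatives, and the number at least 2-fold lower was 0 under all 13. In resident macrophage-gated cells the number was 5, 4 to 6 under 13 alternatives and 3 in the cells with no UMI of a reparative, classical monocyte or neutrophil marker. No ratio whose interval excluded 1 changed direction under an alternative. The *Yfp*+ to *Yfp*− ratio of *Lgals3* ran from 1.42 without the macrophage-gated cell richest in it, an alternative chosen after seeing the data, to 2.80 at steady state. The *Lgals3* ratio of AngII over steady state in macrophage-gated cells ran from 1.72 with clusters in place of gates to 3.90 in resident macrophage-gated cells. The *Lgals3* ratio in resident macrophage-gated cells ran from 2.73 in those marker-free cells to 5.99 with thinned cells, and the *Anxa5* ratio from 0.601 with thinned cells to 1.14. With a minimum of 20 UMIs in place of 100, 9.12% of genes were at least 2-fold higher in macrophage-gated cells and 9.56% lower, against 6.47% and 5.22%. The 135 and 2402 macrophage-gated cells limit the counts, and with 1 library per condition the spread between animals is unknown. No paired analysis was possible because each condition has 1 library and no result comes from a test.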

Other observations

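*Lgals7*, a galectin of stratified epithelia that is no member of the described set and was chosen after its values were seen, had 297 UMIs in the AngII library and 2 at steady state. Of the 297 UMIs, 246 lay in T-gated cells, spread over 58 cells with at most 46 in 1 cell, and 196 lay in 32 of the 77 T-gated cells with a UMI of *Dntt* or *Rag1*. Its level was 292 CPM in those 77 cells and 80.8 CPM in the other T-gated cells, and 0 UMIs were found in the T-gated cells at steady state.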
